A study of Rattus norvegicus with 12 samples.

Results

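Among 14145 circRNA probes on a rat array, the 200 with the highest mean log2 value over 12 orbitofrontal cortex (OFC) samples, 1.41% of all probes, were described. They were chosen on the measured level itself, so their brightness is a description and not a finding. A probe's brightness also depends on its sequence and labelling, so the ranks order probes and not amounts of circRNA. Each array held RNA from the OFC of 1 adult male Sprague Dawley rat, aged 8 weeks on arrival, with 3 rats in each of 4 groups. The heroin and saline rats had a jugular vein catheter and self-administered heroin or saline in sessions of 6 h. The sucrose rats earned chocolate sucrose pellets in sessions of 2 h, and the naive rats were handled and placed in the chamber for 2 h with no protocol running. Sucrose and naive rats had no surgery. All groups had 10 daily sessions, and tissue was taken right after the last one. Only males were on the arrays. The labelled tissue could not be checked here, since no probe of a linear transcript was matched to any of 18 markers of neurons, glia, endothelium or blood.

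A circRNA forms when the end of an exon is joined back to the start of the same or an earlier exon, which closes the RNA into a ring without free ends. Such rings resist exonucleases, outlast many linear transcripts and are plentiful in brain, above all in neurons. The probes lie across these backsplice junctions, and RNA had been digested with RNase R, an enzyme that removes linear RNA. The OFC is a frontal region that takes part in tracking the value of rewards. In a dissected tissue, fewer cells of a type and less RNA per cell cannot be told apart.

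The study's supplementary list of heroin-associated circRNAs, of which 75 probes were used here, held 4 of the 200 probes (2.0% of the 200 and 5.33% of the list). Host genes are named for these alone. In each case the circRNA was exonic, and the positions below are those of the list, which names no genome build. The circRNA rno_circRNA_001098 came from RGD1310016, a name that RefSeq (GRCr8) holds as a synonym of Ric1, and spanned 33334 bp on the plus strand of chromosome 1 from 254962436 to 254995770. Ric1 is a subunit of an exchange factor for the Golgi GTPase Rab6. The circRNA rno_circRNA_009723 came from Dcbld1, a transmembrane protein of the discoidin family, and spanned 13359 bp on the plus strand of chromosome 20 from 35201537 to 35214896. The circRNA rno_circRNA_004183 came from Dennd1b, an exchange factor for Rab35 in endocytic traffic, and spanned 47283 bp on the plus strand of chromosome 13 from 61137857 to 61185140. The circRNA rno_circRNA_011551 came from Rad18, a ubiquitin ligase of DNA damage tolerance, and spanned 16518 bp on the minus strand of chromosome 4 from 207899573 to 207916091.

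The probes to these 4 junctions, 60 bases each, are shown because they are the sequences of the 200 that could be joined to a host gene. Capitals mark the longest run of bases that 3 of the 4 have in common, which was searched for after their values had been seen.
RGD1310016, ASCRPR004492: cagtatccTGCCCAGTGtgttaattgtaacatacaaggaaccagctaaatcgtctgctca
Dcbld1, ASCRPR009934: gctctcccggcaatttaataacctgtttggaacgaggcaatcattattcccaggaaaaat
Dennd1b, ASCRPR010939: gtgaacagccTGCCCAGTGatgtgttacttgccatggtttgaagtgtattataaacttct
Rad18, ASCRPR013884: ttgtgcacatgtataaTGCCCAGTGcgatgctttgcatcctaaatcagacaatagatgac
The run TGCCCAGTG, 9 bases long, started at base 9 of the RGD1310016 probe, base 11 of the Dennd1b probe and base 17 of the Rad18 probe, counted from the printed left end. On either strand it was in 0 of the other 71 listed probes and in 0.0819% of 167345 windows of 60 bases cut from RefSeq promoters. Among the 75 listed probes 3 different runs of this length, this run included, were each found in probes of at least 3 host genes. Such sharing was thus not unique to this run. Neither this count nor the promoter windows, which are not backsplice junctions, gives the chance of a run in 3 of 4 probes. The GC content of the 4 probes was 41.7% to 43.3%, within the range of the other listed probes (28.3% to 61.7%, median 45.0%).

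The mean deposited log2 value fell steeply over the first ranks, from 17.32 for ASCRPR003948, the brightest probe, and then flattened. The last probes inside the limit were ASCRPR013884 (11.888) and ASCRPR008726 (11.887), and the first outside it were ASCRPR008469 (11.884) and ASCRPR008494 (11.877), so the limit cut through a continuous range of levels. After the brightest came ASCRPR013743, ASCRPR011276, ASCRPR004513, ASCRPR012050, ASCRPR012712, ASCRPR009150, ASCRPR009754, ASCRPR001748 and ASCRPR009090. All 200 probes were well above background on all 12 arrays, and all 200 passed the filter on low values, as did 13779 of the 13945 remaining probes. On single arrays, between 173 and 189 of the 200 were among that array's own 200 brightest, and 120 were so on all 12 arrays. The lowest place that any of them took on an array was 579. The 200 were scattered over the array surface. A probe of the 200 lay next to another in 9.0% of cases, and 9.76% of the remaining probes lay next to one.

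**Figure D1:**
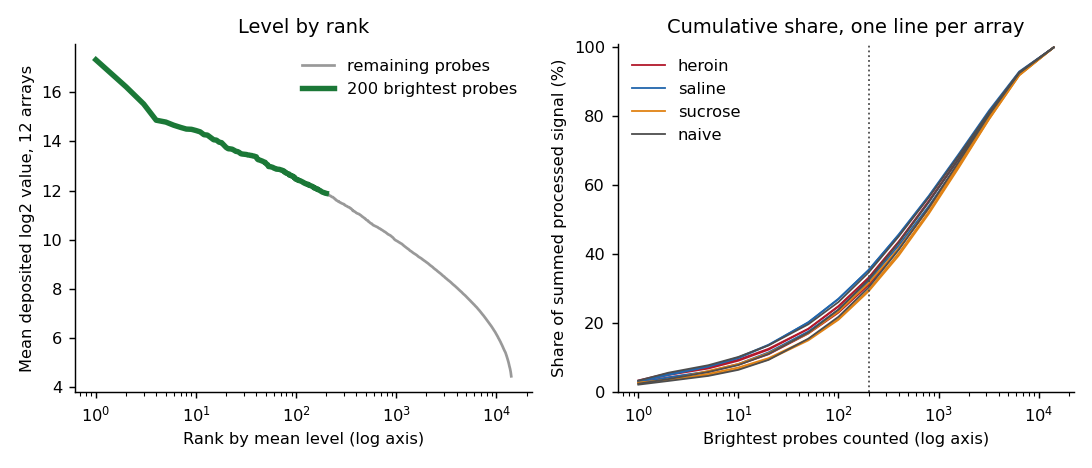
Left, mean deposited log2 value over 12 arrays against rank on a log axis, with the 200 brightest probes in green and the remaining probes that passed the filter in grey. Right, cumulative share (%) of the summed processed signal against the number of brightest probes counted on a log axis, with 1 line per array coloured by group and a dotted line at 200. The lines lie close together and cross the dotted line between 29.2% and 35.4%.

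The 200 probes held close to 32.4% of the background-subtracted signal summed over all circRNA probes of an array (mean of 12 arrays). The share was 31.1%, 33.1% and 33.2% on the heroin arrays and 35.4%, 32.2% and 35.4% on the saline arrays. It was 29.2%, 31.6% and 29.6% on the sucrose arrays and 34.7%, 32.7% and 30.4% on the naive arrays. The group means were 32.5% ± 1.21 for heroin, 34.3% ± 1.87 for saline, 30.1% ± 1.28 for sucrose and 32.6% ± 2.17 for naive (SD, n = 3). Sucrose was lowest on average and saline highest, and these 2 groups did not overlap, whereas heroin overlapped with saline and sucrose with naive. No test was made of this share, since the probes had been chosen for their level.

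The brightest probe alone held 2.16% to 3.39% of the signal, and the 10 brightest held 6.46% to 10.2%. The share of the next 200 probes was steadier, from 10.1% to 10.9%, so the arrays differed more in the signal of the brightest than in that of the probes ranked after them. Between 512 probes (saline 3) and 708 probes (sucrose 1) made up 50% of an array's signal. The median signal of the 200 was 49.1 to 59.9 times that of the remaining probes on the same array. Their lowest processed signal on any array was 1137 (naive 1), where the remaining probes had a median of 69.7.

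**Figure D2:**
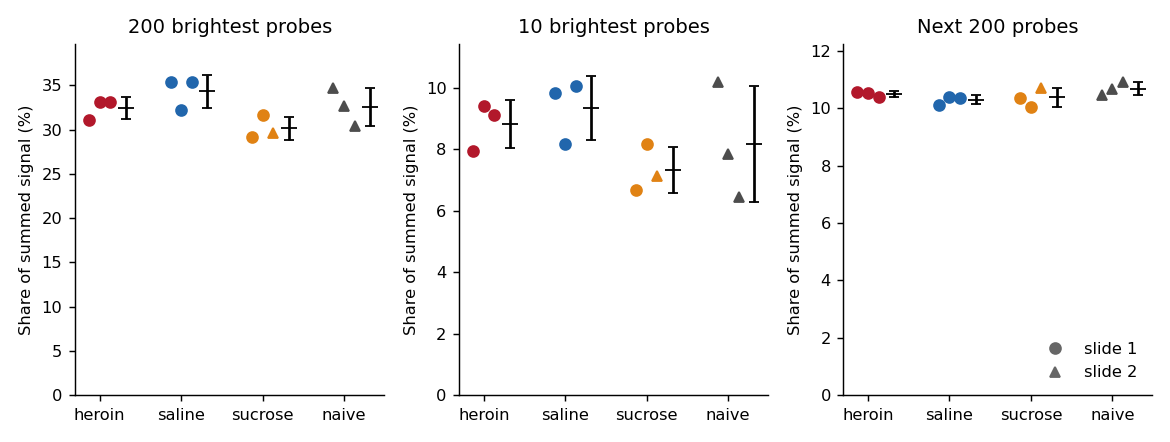
Share (%) of the summed processed signal held by the 200 brightest, the 10 brightest and the next 200 circRNA probes on each array, by group, with circles for slide 1, triangles for slide 2 and black bars for the group mean ± SD (n = 3). The 10 brightest range from 6.46% to 10.2% and the next 200 from 10.1% to 10.9%.

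For the comparisons, signals were quantile-normalized, which gives every array the same set of values and leaves only the order of the probes within an array. ASCRPR003948 was first on all 12 arrays and so had the value 17.25 on each, although its processed signal ranged from 118682 (naive 3) to 186237 (sucrose 2). No difference in this circRNA can be read from the normalized values. The next ranks were set in coarse steps of 0.89 (rank 1 to 2), 0.89 (rank 2 to 3) and 0.49 (rank 3 to 4) on the log2 scale. At the lower end of the 200 a step was 0.0037. ASCRPR013743 was at 16.35 on 10 arrays, at 14.97 on sucrose 2 and at 15.46 on sucrose 3, values that move by whole steps of rank.

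The spread between animals was described by the SD within groups, pooled over the 4 groups. Its median was 0.20 for the 200 probes (log2, quartiles 0.15 and 0.30), 0.22 for the next 200 and 0.25 for the remaining probes. Spread fell with level among the dim probes and was flat above a normalized log2 value of about 7. It was 0.80 between 1 and 2, 0.22 between 7 and 8 and 0.21 between 12 and 13. The order depended on the background correction. In the deposited values, which follow the signal before background subtraction, the medians were 0.20 for the 200 and 0.19 for the remaining probes. By group, the median SD of the 200 was 0.14 for heroin, 0.12 for saline, 0.26 for sucrose and 0.16 for naive. In the remaining probes it was 0.21, 0.19, 0.26 and 0.21. The median of the 200 was below that of the rest in heroin, saline and naive rats and close to it in sucrose rats. Sucrose was the one group with arrays on both slides. Over the 200, sucrose 1 and 2, both on slide 1, correlated at 0.883, the lowest of the pairs within a group and slide. Sucrose 3, on slide 2, correlated with them at 0.834 and 0.788. The part of slide in the sucrose spread was not tested.

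**Figure D3:**
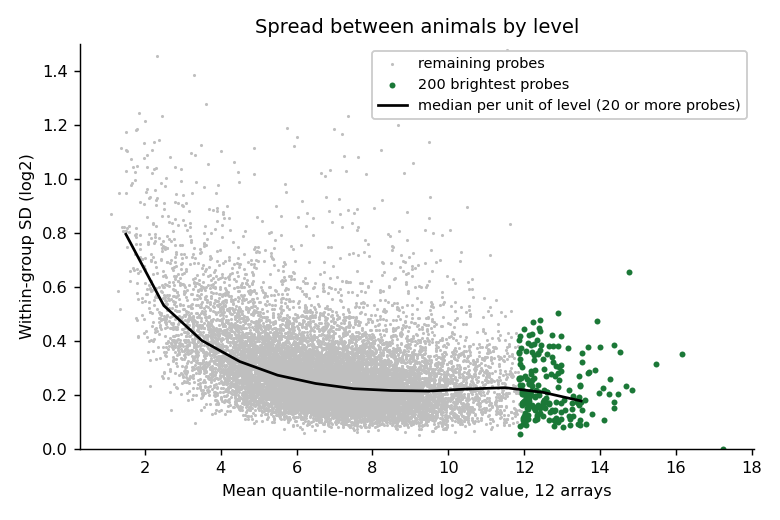
SD within groups (log2, pooled over 4 groups) against mean quantile-normalized log2 value for the 200 brightest probes (green) and the remaining probes (grey), with the median per unit of level as a black line where a unit held 20 or more probes. The quartiles of the 200 are 0.15 and 0.30, the brightest probe lies at 0 by construction, and 3 remaining probes lie above the axis limit.

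The most variable of the 200 was ASCRPR012050 (SD 0.65). Its normalized log2 values were 14.27, 14.64 and 14.84 on the heroin arrays, 14.74, 14.35 and 14.74 on the saline arrays, 13.93, 16.35 and 14.84 on the sucrose arrays and 14.97, 14.97 and 14.47 on the naive arrays. Sucrose 2 stood alone, with a processed signal of 74698 where the other arrays had 17296 to 41398. ASCRPR004492 (RGD1310016, SD 0.50) and ASCRPR004765 (SD 0.48) followed. ASCRPR004765 was at 11.63 on sucrose 3 and at 11.87 to 12.02 on the naive arrays, and at 12.23 to 13.24 on the arrays of slide 1. The smallest spreads after the brightest probe were those of ASCRPR002782 (0.054) and ASCRPR009480 (0.081). ASCRPR002782 was at 11.70 to 11.87 on all heroin, saline and sucrose arrays and at 11.98 to 12.10 on the naive arrays.

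Part of the variation over all arrays, group differences included, went with the slides. Slide 1 held the heroin and saline arrays with sucrose 1 and 2, while sucrose 3 was scanned with the naive arrays on slide 2. The first principal component of the 200 took 38.7% of their variance over arrays, against 29.4% for the next 200 and 26.3% for the remaining probes. For the 200, all 4 arrays of slide 2 were on its positive side. Of the 8 arrays of slide 1, 7 were on the negative side, with heroin 1 at 0.00077. The next 200 split by slide with no exception, and the remaining probes did so except for saline 1 at 0.015. The split was thus not particular to the 200. Sucrose 3 was the only array of slide 2 that was not naive, so the split was largely also one of naive against the other groups. For 25 of the 200 (12.5%), the arrays of slide 2 did not overlap with those of slide 1, beside 7.43% of all probes tested. Of the 25, 14 were higher and 11 lower on slide 2. In the 11, sucrose 3 was 0.76 below the mean of slide 1 and the naive arrays 0.52 to 0.64 below it (medians, log2), while sucrose 1 and 2 were within 0.09 of it. The part of slide in the comparisons with naive rats was not tested beyond the fits with slide as a block given below.

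Heroin against saline was the study's own question, and all 6 arrays were on slide 1. The arrays of the groups did not overlap for 81 of the 200 probes (40.5%), beside 14.7% of all 13979 probes tested. All heroin arrays were higher for 51 of these and lower for 30. An unadjusted p below 0.05 in limma was reached by 23 (11.5%; 6.73% of all probes), 13 higher and 10 lower. The study threshold, a fold change above 1.5 with an unadjusted p below 0.05 (here that of limma), was passed by 6 (3.0%; 2.6% of all probes), all lower after heroin. None passed after Benjamini-Hochberg adjustment (0.0% of all probes; smallest adjusted p of the 200 = 0.569). The share of the 200 was above that of all probes for separation and for the unadjusted p, and close to it for the study threshold. For the unadjusted p this was not particular to the 200, since a larger set of the brightest probes, given below, had a like rate. The 23 depended on single arrays, with 6 without heroin replicate 1, 9 without heroin replicate 2, 12 without saline replicate 1 and 13 without saline replicate 2. It was 9 with slide row as a block, and 49 by the methods' t-test. Here and below, counts under alternatives at an unadjusted p below 0.05 lack the share over all probes. They do not show whether the 200 changed apart from the rest.

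The median log2 difference of the 200 was 0.055, with 120 higher and 79 lower in heroin. It was 0.033 for the next 200 by level and 0.0049 for the remaining probes. In place of quantile normalization, each array was also scaled to its 75th percentile. The median of the 200 was then −0.0070, and the separated probes were 22 higher and 35 lower (28.5%, beside 14.7% of all probes). Whether more of the bright probes were higher or lower after heroin thus turned with the scaling. The median absolute difference was 0.19 for the 200, 0.19 for the next 200 and 0.17 for the remaining probes. The smaller spread of the 200 within the heroin and saline groups, given above, stood beside the larger number of separated probes, and its part in that number was not tested.

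Among probes with no overlap and an unadjusted p below 0.05, the 5 largest higher differences were those of ASCRPR009184, ASCRPR006785, ASCRPR009754, ASCRPR000640 and ASCRPR004832, from 0.45 to 0.55 (1.37-fold to 1.47-fold). ASCRPR009184 was at 12.21, 12.05 and 11.91 on the heroin arrays and at 11.43, 11.48 and 11.59 on the saline arrays. The difference was 0.55 ± 0.16 (SE; limma, adjusted p = 0.626). The sucrose arrays (12.13, 11.76 and 12.21) and the naive arrays (12.21, 12.05 and 12.30) were all above saline as well, so for this probe the saline rats stood apart from the other 3 groups.

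The largest lower difference was that of ASCRPR001965, at 11.03, 10.59 and 10.90 on the heroin arrays and at 11.13, 12.43 and 12.35 on the saline arrays. The difference was −1.13 ± 0.30 (SE; limma, adjusted p = 0.569). Saline 1 lay with the heroin arrays and not with the other saline arrays, and the sucrose and naive arrays were at 12.12 to 12.68. The 4 low arrays were those of row 1 of slide 1. Against saline 1 alone, which shares that row, the difference was −0.29. For 12 of the 200 (6.0%; 3.42% of all probes), the arrays of row 1 did not overlap with those of row 2 on slide 1, and 6 of these 12 were among the 81 separated between heroin and saline.

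The other lower differences by the same rule were those of ASCRPR009934 (Dcbld1, −0.96), ASCRPR013884 (Rad18, −0.80), ASCRPR004492 (RGD1310016, −0.80) and ASCRPR001235 (−0.69). The study had selected the 4 listed circRNAs on these heroin and saline arrays, so their lower level after heroin is a description and not independent evidence. By list, 42 of the 75 probes used here were lower after heroin and 33 higher, and the paper's own total of lower circRNAs is larger. The 4 that were bright enough to be among the 200 were all lower.

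For RGD1310016 the normalized log2 values were 12.57, 12.42 and 12.80 with heroin, 13.28, 13.20 and 13.70 with saline, 12.11, 13.19 and 12.68 with sucrose and 13.43, 13.20 and 11.98 in naive rats. Rad18 was at 11.46, 11.24 and 11.72 with heroin, 12.34, 12.11 and 12.39 with saline, 11.40, 12.07 and 11.76 with sucrose and 12.38, 12.31 and 11.18 in naive rats. Dennd1b was at 11.74, 11.83 and 12.13 with heroin, 12.64, 12.37 and 12.62 with saline, 11.67, 12.38 and 11.69 with sucrose and 12.52, 12.53 and 11.32 in naive rats. In all 3 the heroin arrays were below every saline array, and naive 3 was the lowest of the 12 arrays. Dcbld1 was at 11.43, 11.71 and 12.36 with heroin, 13.01, 12.67 and 12.72 with saline, 11.68, 12.64 and 11.56 with sucrose and 11.73, 12.47 and 12.75 in naive rats. Here too heroin lay below saline, but naive 3 was the highest naive array.

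The heroin and saline differences of the 4 were −0.80 ± 0.35 for RGD1310016, −0.96 ± 0.33 for Dcbld1, −0.64 ± 0.30 for Dennd1b and −0.80 ± 0.29 for Rad18 (SE). Sucrose and naive arrays had no part in how the study selected them. There the differences were −0.21 ± 0.35, −0.36 ± 0.33, −0.21 ± 0.30 and −0.21 ± 0.29 in the same order, and the groups overlapped for all 4 (limma, adjusted p from 0.683 to 0.840). Saline was higher than naive on average by 0.32 to 0.52, again with overlap (adjusted p from 0.461 to 0.581).

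The 3 probes that share the capital run varied together from array to array. With each probe centred on its own mean, the SD over 12 arrays of the difference between a pair of the 3 was 0.16 to 0.18, while each probe on its own varied with an SD of 0.45 to 0.54. Between any of the 3 and Dcbld1, whose probe lacks the run, the SD of the difference was 0.52 to 0.60. This was noticed in these arrays and has no test here, and the 3 probes were also selected together on the heroin and saline arrays. A probe outside the study's list, ASCRPR014018, had a like pattern. It was at 11.91, 12.13 and 12.28 with heroin and at 12.66, 12.41 and 12.71 with saline. With sucrose it was at 12.01, 12.48 and 11.805, and in naive rats at 12.56, 12.45 and 11.55. Its sequence was not available, so the part of the run in the shared variation was not tested.

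**Figure D4:**
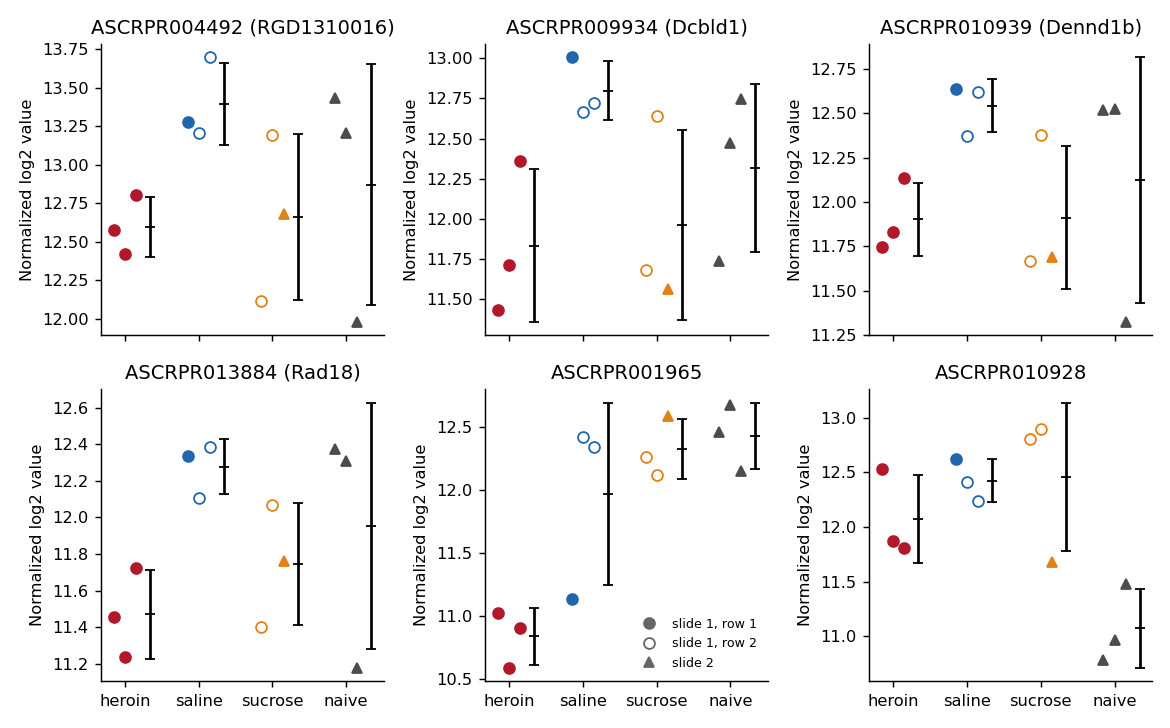
Normalized log2 value per array of the 4 listed probes (host gene in brackets), ASCRPR001965 and ASCRPR010928, by group, with filled circles for row 1 and open circles for row 2 of slide 1, triangles for slide 2 and black bars for the group mean ± SD (n = 3). The listed probes are lower on all heroin than on all saline arrays, ASCRPR001965 is low on the 4 arrays of row 1 of slide 1, and ASCRPR010928 is low on slide 2.

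Sucrose against naive addressed a natural reward, with no surgery in either group. After quantile normalization, separated probes were about as common among the 200 as among all probes. The groups did not overlap for 24 (12%; 13.4% of all probes), 5 higher and 19 lower with sucrose. An unadjusted p below 0.05 was reached by 20 (10.0%; 11.1% of all probes) and the study threshold by 5 (2.5%; 4.77% of all probes), and none passed after adjustment (smallest adjusted p = 0.274). The median difference was −0.047 (next 200 probes −0.055, remaining probes −0.012). The median absolute difference was 0.14 for the 200, 0.16 for the next 200 and 0.20 for the remaining probes. With 75th percentile scaling the median was −0.21, and 41 of the 200 had an unadjusted p below 0.05. The separated probes were then 2 higher and 45 lower (23.5%, beside 14.3% of all probes). Of the separated probes, 4.26% were higher among the 200 and 50.2% among all probes. The count of 20 was 48 without sucrose replicate 3, the array on slide 2, and 9 without sucrose replicate 1, 10 without naive replicate 1 and 12 without naive replicate 2.

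The largest differences were of probes that were low in naive rats against every other group. ASCRPR002834 was at 13.42, 13.04 and 12.42 with sucrose and at 11.46, 11.17 and 11.77 in naive rats, a difference of 1.49 ± 0.31 (SE; limma, adjusted p = 0.274). It was at 13.07, 12.20 and 12.16 with heroin and at 13.15, 12.56 and 12.42 with saline, so the naive arrays lay below all other arrays. ASCRPR010928 was at 12.80, 12.89 and 11.68 with sucrose, 10.78, 10.96 and 11.48 in naive rats, 12.53, 11.87 and 11.80 with heroin and 12.62, 12.41 and 12.23 with saline. Its difference was 1.39 ± 0.31 (SE; limma, adjusted p = 0.305, and 0.0407 without sucrose replicate 3). Sucrose 3, which shares slide 2 with the naive arrays, was closer to them than the other sucrose arrays were. Within slide 2 the difference of sucrose 3 from naive was 0.95 for ASCRPR002834 and 0.61 for ASCRPR010928. Smaller differences with no overlap and an unadjusted p below 0.05 were those of ASCRPR013789 (0.42) and ASCRPR008255 (0.38).

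In the other direction, ASCRPR000804 was at 12.37, 12.43 and 12.07 with sucrose and at 13.28, 12.72 and 12.70 in naive rats, a difference of −0.61 ± 0.18 (SE; limma, adjusted p = 0.334). The differences of ASCRPR012257, ASCRPR003404, ASCRPR000937 and ASCRPR011535 ran from −0.53 to −0.45. For 13 of the 20 probes with an unadjusted p below 0.05 the groups did not overlap, which fixes the direction of sucrose 3 against naive within slide 2. Of the other 7, 6 kept their direction there. Sucrose 3 and the naive arrays are also part of the full difference by which these probes were picked, so this is no independent check.

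Saline against naive compared the control groups, which differed in surgery, infusion, session length and slide. Counts were highest here. The groups did not overlap for 98 (49%; 26.7% of all probes), 38 higher and 60 lower in saline rats. An unadjusted p below 0.05 was reached by 48 (24.0%; 16.8% of all probes) and the study threshold by 21 (10.5%; 7.29% of all probes), 15 higher and 6 lower. None passed after adjustment (smallest adjusted p = 0.101). The median difference was −0.071 for the 200, −0.060 for the next 200 and −0.0091 for the remaining probes. The median absolute differences were 0.28, 0.29 and 0.23 in the same order. The 98 include, by construction, the 25 probes whose arrays were separated between the slides. Without naive replicate 1 the count of 48 was 31. With slide as a block, which leaves sucrose 3 as the only link between the slides, 7 of the 200 had an unadjusted p below 0.05. Apart from that link, slide and group cannot be told apart here.

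Saline was higher than naive by 1.35 for ASCRPR010928, 1.24 for ASCRPR002834, 1.08 for ASCRPR007546, 1.04 for ASCRPR009150 and 0.83 for ASCRPR006460. ASCRPR009150, among the 10 brightest, was at 14.84, 14.84 and 14.97 on the saline arrays and at 14.16, 13.86 and 13.53 on the naive arrays (1.04 ± 0.26, SE; limma, adjusted p = 0.122). Its heroin arrays (14.84, 14.84 and 14.97), sucrose 1 (14.97) and sucrose 2 (14.74) were all high, and sucrose 3 (13.78) lay with the naive arrays, so its levels divided by slide. With slide as a block the difference was −0.038. The largest differences in the other direction were −0.83 for ASCRPR003404, −0.71 for ASCRPR000804, −0.71 for ASCRPR011719, −0.68 for ASCRPR009184 and −0.60 for ASCRPR008725.

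Whether the 2 rewards differed from their controls to an unequal degree was tested as an interaction, heroin minus saline less sucrose minus naive. An unadjusted p below 0.05 was reached by 20 of the 200 (10.0%; 8.73% of all probes), 13 with a higher and 7 with a lower heroin effect, and none passed after adjustment (smallest adjusted p = 0.401). The count was 61 without sucrose replicate 3 and 13 without heroin replicate 2. These comparisons share arrays, since saline serves in 2 of them and naive in 2, so their counts are not independent of each other.

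**Figure D5:**
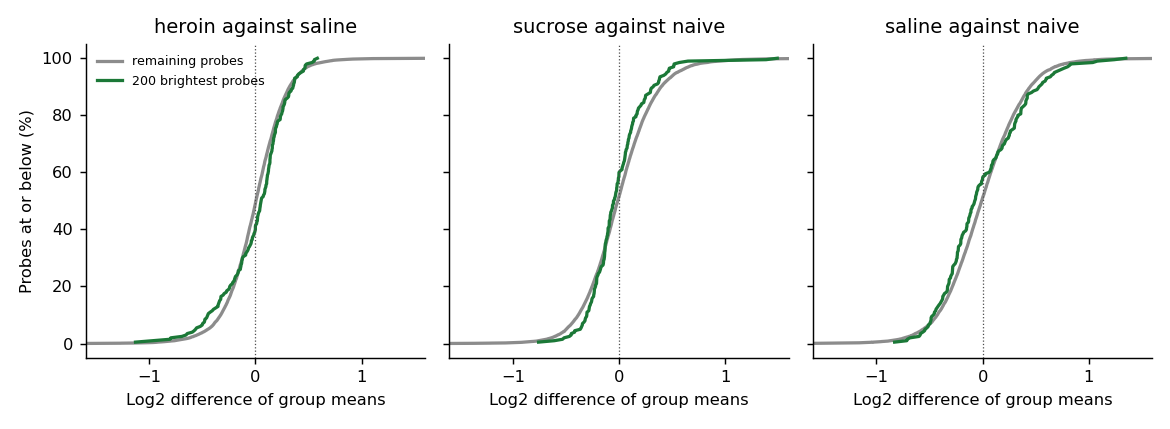
Cumulative distribution (% of probes at or below a value) of the log2 difference of group means for the 200 brightest probes (green) and the remaining probes (grey) in 3 comparisons, with a dotted line at 0. The green curve lies to the right of the grey one through most of heroin against saline (medians 0.055 and 0.0049), and is steeper than it in sucrose against naive and wider in saline against naive.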

How the data were processed

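Samples were grouped by their labels. RNA had been digested with RNase R, labelled with Cy3 and hybridized by a service. The authors deposited each array's Agilent Feature Extraction (version 11.0.1.1) intensity values and a table of log2 values. Members were ranked on that log2 table. Shares were taken from the background-subtracted processed signal intensity. For the comparisons, log2 of that signal was quantile-normalized over all circRNA probes after 9 spots marked as outliers had been dropped. A probe entered the fit if it stood well above background on 3 or more of the 12 arrays. R 4.3.3 and limma 3.58.1 were used, with 1 mean per group and a shared spread, and p-values were adjusted over 13979 probes. The methods also used quantile normalization, the filter and these limits on fold and p, but started from the raw data and took p from a t-test, where limma's p on the processed signal is used here. Values within 0.0001 of each other, which can share a rank, were counted as overlapping. The fit was tested on simulated data.

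The 200 probes and all lists were chosen with earlier results of these data known. Named probes were those on the study's list, the 10 brightest, up to 5 in each direction per comparison with the largest difference among those with an unadjusted p below 0.05 and no overlap, the 3 most and 3 least variable, and those next to the limit. Dennd1b met only the first part, and ASCRPR014018 was named outside this rule for its likeness to the listed probes that share the capital run. Alternatives were other background corrections and scalings, the deposited values, no filter, 100 or 400 probes, blocks for slide, slide row and replicate number, the methods' t-test, and each array left out. The labels name separate animals. The number of arrays limits precision. The fold change and p-value columns of the study's list were not used.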

Additional observations from a re-analysis of the deposited data

How the results depend on the processing

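Of 570 alternative values of single named probes, 561 kept their direction and their side of an adjusted p of 0.05. With slide as a block, saline against naive turned for ASCRPR009150 (−0.038), ASCRPR006460 (−0.35) and ASCRPR008725 (0.30), and with slide row as a block, added after the data were seen, to −0.017, −0.38 and 0.24. The other 3 passed: in saline against naive with normexp, ASCRPR003404 (−0.87) and ASCRPR009184 (−0.68), the only 2 probes of the 200 with an adjusted p below 0.05 in that comparison under any alternative run, and in sucrose against naive without sucrose replicate 3, ASCRPR010928 (1.78).

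Counts of the 200 at an unadjusted p below 0.05, were as reported 23 for heroin against saline, 20 for sucrose against naive, 48 for saline against naive and 20 for the interaction, the order kept below. The counts under alternatives lack the share over all probes, so they do not show whether the bright probes changed apart from the rest. With normexp the first was 38 and the interaction 40, and the interaction was 31 on the signal before background subtraction and 36 on the deposited values. Sucrose against naive was 41 with 75th percentile scaling. With slide as a block, saline against naive was 7 and the interaction 11, and with slide row as a block heroin against saline was 9, saline against naive 5 and the interaction 10. In fits of the compared groups alone, heroin against saline was 40 and sucrose against naive 7. The methods' t-test gave 49, 12 and 73, and on the deposited values, added after the data were seen, 50, 12 and 75. For the 100 brightest the counts were 14, 8, 24 and 10, and for the 400 brightest 50, 43, 95 and 45, which follow the number of probes. The rate in the 400 was thus close to that in the 200. The higher share than in all probes, for heroin against saline and saline against naive, was therefore not particular to the 200.

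With 1 array left out, heroin against saline ran from 6 (without heroin replicate 1) to 27, with 9 without heroin replicate 2, 12 without saline replicate 1 and 13 without saline replicate 2. Sucrose against naive ran from 9 (without sucrose replicate 1) to 48 (without sucrose replicate 3, with 1 probe passing after adjustment and 0 otherwise), and was 10 without naive replicate 1 and 12 without naive replicate 2. Saline against naive ran from 31 (without naive replicate 1) to 38, and the interaction from 13 (without heroin replicate 2) to 61 (without sucrose replicate 3).

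The median difference with 75th percentile scaling was −0.0070 for heroin against saline, −0.21 for sucrose against naive and 0.19 for the interaction. With slide or slide row as a block, it was 1.6e-05 for sucrose against naive, and for saline against naive −0.037 and −0.023. For the 100 brightest it was 0.082 for heroin against saline and −0.12 for saline against naive. The share was 24.0% for the 100 and 42.8% for the 400 brightest, and 32.1% to 32.7% with 1 array left out. Other alternatives kept the share and the spread within the replicate SD. Replicate numbers did not pair the arrays, with correlations of same-numbered deviations between −0.20 and 0.06 and none highest with its own number. With the replicate block the counts were 14, 12, 42 and 16.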
